A study of Mus musculus with 8 samples.

Results

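The Ser2P-only sites are 1210 stretches of the mouse genome where RNA polymerase II phosphorylated on serine 2 of its C-terminal domain (Ser2P) was called in MEL cells and polymerase phosphorylated on serine 5 (Ser5P) was not. Overlapping peaks of 8 CUT&Tag libraries were merged into 56005 regions on the autosomes, X and Y, and a region was kept where at least 3 of the 4 Ser2P libraries and none of the 4 Ser5P libraries had a peak. MEL is a mouse erythroleukaemia line, and CUT&Tag uses an antibody to bring a transposase to chromatin, where it cuts and tags the DNA nearby. The 8 libraries were Ser2P and Ser5P libraries from a line labelled Myrlin KD (KD), in which the RNA of the enhancer 81 kb upstream of Myb was knocked down, and from a line labelled dCAS control (control), with 2 replicates of each antibody in each line. The labels do not say how the knockdown was made, whether each line is 1 clone or whether replicates were separate cultures, so the p-values below speak of variation among these particular libraries, part or all of which may be technical.

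The C-terminal domain of the largest polymerase II subunit is a repeated heptapeptide whose phosphorylation changes as transcription proceeds. Serine 5 is phosphorylated at initiation by the kinase of TFIIH, and Ser5P is densest near promoters. Serine 2 is phosphorylated during elongation by CDK9 and CDK12, and Ser2P accumulates along the gene and past its 3′ end, where it helps recruit cleavage, polyadenylation and termination factors. Polymerase goes on past the polyadenylation site before it is released.

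The members were chosen by presence of peaks in these 8 lists, so presence is a description here and is not tested. Of the 1210 sites, 241 had a peak in all 4 Ser2P libraries and 969 in 3 of 4. Among those 969 the library without a peak was control 2 for 592, KD 2 for 154, control 1 for 142 and KD 1 for 81. The mirror set, at least 3 Ser5P libraries and no Ser2P library, held 346 regions, 11773 regions had a peak in all 8 libraries, and 19124 had at least 3 Ser2P libraries and at least 1 Ser5P library. Just outside the threshold stood 2949 regions with 2 Ser2P libraries and no Ser5P library, and 1424 with at least 3 Ser2P libraries and 1 Ser5P library. The median of the smallest deposited fold enrichment over the marked libraries was 3.24 for members in all 4 libraries and 3.21 for members in 3 of 4. It was 3.38 and 3.51 just outside the threshold and 5.47 where all 4 Ser5P libraries also had a peak.

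The libraries differ in depth. The background pileup, the fragment count that the deposited fold and p imply for the local background, was 1.12 and 1.03 in the Ser2P KD libraries against 0.781 and 0.439 in the Ser2P controls, and it ran from 0.566 to 0.837 in the Ser5P libraries. Control 2 of Ser2P stands apart with 20793 peaks, against 29372 to 32125 in the other Ser2P lists and 21574 to 25441 in the Ser5P lists. For the line itself, Ser5P lay at the promoter in all 4 Ser5P libraries for 10 of 16 erythroid marker genes, for 2 of 12 megakaryocyte and mast cell markers and for none of 12 lymphoid, 12 myeloid or 12 non-haematopoietic markers.

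A minority of the Ser2P-only sites sat at promoters, and 4 of their RefSeq promoter sequences (GRCm38.p6, 250 bases before to 50 after a start) are printed here as examples. The 4 windows below belong to the promoter sites marked in all 4 Ser2P libraries that ranked highest by their smallest fold, at Rtraf (an RNA transcription and transport factor), Slc35g1 (a solute carrier), Ptbp2 (the neural polypyrimidine-tract splicing regulator) and Cyp2ab1 (a cytochrome P450). Capitals mark matches, on either strand, to GGGCGG (the GC box), CCAAT (the CCAAT box) and AATAAA (the polyadenylation signal letters), and neighbouring matches may overlap. Each is written 5′ to 3′ on the strand of its gene.
Rtraf, chr14:19823774-19824073, minus strand: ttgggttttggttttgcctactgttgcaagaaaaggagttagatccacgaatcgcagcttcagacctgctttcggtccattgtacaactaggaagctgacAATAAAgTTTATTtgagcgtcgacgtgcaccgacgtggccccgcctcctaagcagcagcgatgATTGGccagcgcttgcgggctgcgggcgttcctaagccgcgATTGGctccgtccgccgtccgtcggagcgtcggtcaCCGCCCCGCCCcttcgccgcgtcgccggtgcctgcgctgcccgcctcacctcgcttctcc
Slc35g1, chr19:38395730-38396029, plus strand: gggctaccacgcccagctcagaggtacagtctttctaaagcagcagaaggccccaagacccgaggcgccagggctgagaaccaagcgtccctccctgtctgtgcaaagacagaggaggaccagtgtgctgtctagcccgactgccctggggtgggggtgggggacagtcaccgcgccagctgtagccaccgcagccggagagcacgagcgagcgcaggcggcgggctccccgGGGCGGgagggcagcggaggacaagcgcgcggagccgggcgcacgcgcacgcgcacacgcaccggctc
Ptbp2, chr3:119783339-119783638, minus strand: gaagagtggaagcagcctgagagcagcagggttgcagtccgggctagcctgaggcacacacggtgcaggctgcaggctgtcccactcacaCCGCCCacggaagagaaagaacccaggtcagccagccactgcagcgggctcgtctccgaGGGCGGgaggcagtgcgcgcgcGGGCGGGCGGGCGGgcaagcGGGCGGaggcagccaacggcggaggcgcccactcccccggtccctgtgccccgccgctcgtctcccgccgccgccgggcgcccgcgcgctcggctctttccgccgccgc
Cyp2ab1, chr16:20325355-20325654, minus strand: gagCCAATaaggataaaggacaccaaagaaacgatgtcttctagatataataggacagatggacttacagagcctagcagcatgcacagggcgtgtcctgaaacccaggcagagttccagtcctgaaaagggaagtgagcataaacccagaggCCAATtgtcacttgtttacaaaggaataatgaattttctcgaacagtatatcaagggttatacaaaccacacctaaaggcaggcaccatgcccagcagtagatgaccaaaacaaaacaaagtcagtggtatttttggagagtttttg
The first 3 windows are rich in G and C, with 61.0%, 70.3% and 74.7% of their bases and 33, 28 and 36 CpG pairs, while that of Cyp2ab1 has 43.0% and 3 CpG pairs.

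Ser2P-only sites lay toward the ends of genes and past them. With each site placed by its summit, 94 of the 1210 (7.77%, 95% Wilson interval 6.39 to 9.41) were at promoters, within 1000 bp of a 5′ end of a protein-coding gene. A further 171 (14.1%, 12.3 to 16.2) were at 3′ ends, from 1000 bp inside to 3000 bp past the end of a gene, 544 (45.0%) were elsewhere inside genes and 401 (33.1%) were distal, outside all these. Ser5P-only sites had 16.5% at promoters and 6.36% at 3′ ends, and sites marked in all 8 libraries had 59.6% and 4.20%. The median distance to the nearest 5′ end was 24489.5 bp for Ser2P-only sites, 12874 bp for Ser5P-only sites and 241 bp for sites marked in all 8. Shares of these merged sets are of all their sites, so a larger promoter share leaves less for the other classes. They are given as descriptions, and the test over libraries follows them.

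The share at 3′ ends and the position within genes moved with the number of Ser5P libraries that had a peak at a Ser2P site. It was 14.1% at 3′ ends with no Ser5P library (the members), 10.8% with 1, 11.3% with 2, 7.96% with 3 and 4.46% with 4. Over the same steps the promoter share was 7.77%, 10.4%, 12.9%, 19.7% and 56.2%. Promoters were assigned first and each share is of all sites, so the rise at promoters by itself lowers the share at 3′ ends. Of the 1210 members, 171 were at 3′ ends and 94 at promoters. Of the 13465 sites with 4 Ser5P libraries, 601 were at 3′ ends and 7574 at promoters. Among sites inside a gene and outside promoters, the median position, with 0% at the 5′ end and 100% at the 3′ end, was 71.8%, 65.7%, 59.0%, 55.5% and 48.5%.

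**Figure D1:**
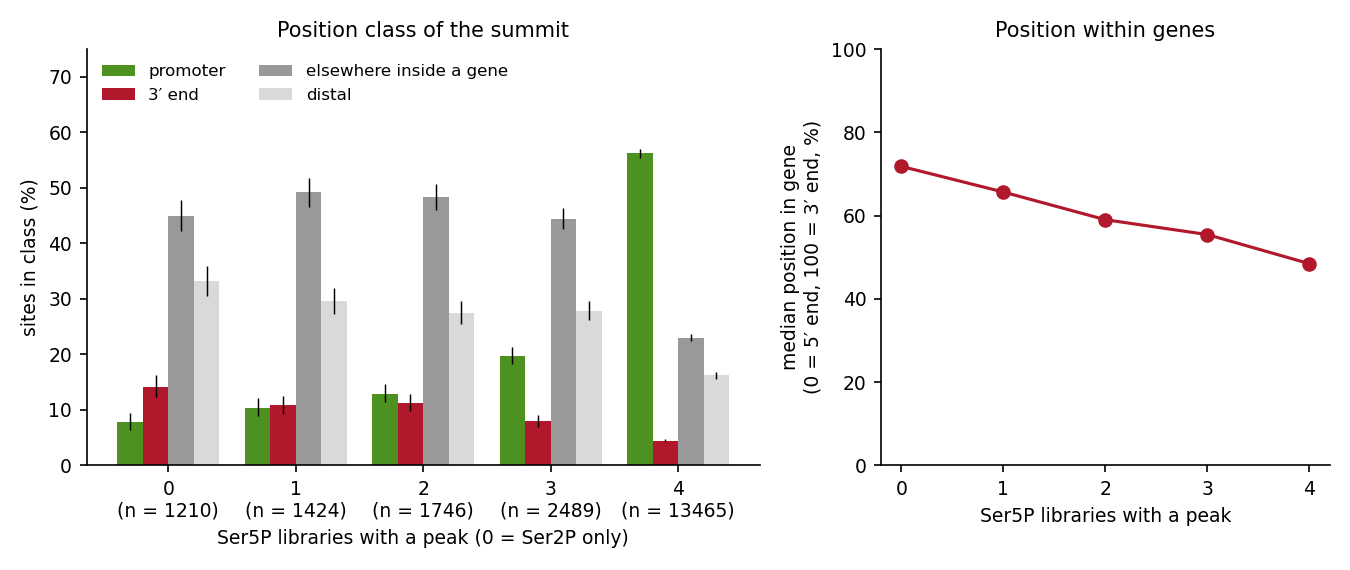
Left, percent of sites with at least 3 Ser2P libraries whose summit falls in each position class, by the number of Ser5P libraries with a peak (bars, with 95% Wilson intervals, which cover counting error only); right, their median position within genes in percent of gene length. The Ser2P-only sites, at 0 on the horizontal axis, have 14.1% at 3′ ends and a median position of 71.8%, against 4.46% and 48.5% at sites with 4 Ser5P libraries. Class shares are of all sites, promoters included, so a rise at promoters lowers the other classes.

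Within genes the members crowded toward the 3′ end. Of 583 Ser2P-only sites inside a gene and outside promoters, 152 (26.1%) lay in the last 10% of the gene length and 21 (3.60%) in the first 10%. The last 20% of the length held 39.6% of them and the first 20% held 9.26%. For 128 Ser5P-only sites the last 20% held 16.4% and the first 20% held 24.2%, and for 2682 sites marked in all 8 libraries the shares were 21.9% and 20.4%. The genes that held Ser2P-only sites were long, with a median length over sites of 88845 bp, against 59499.5 bp for Ser5P-only sites and 60671 bp for sites marked in all 8.

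**Figure D2:**
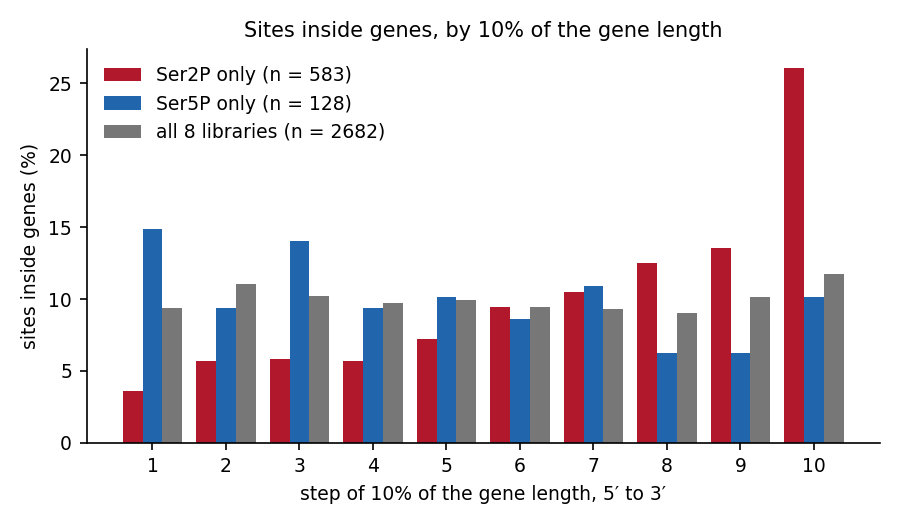
Percent of the sites inside genes and outside promoters that fall in each step of 10% of the gene length, from 5′ to 3′, for Ser2P-only sites, Ser5P-only sites and sites marked in all 8 libraries (bars, with the number of sites in the legend). Ser2P-only sites climb to 26.1% in the last step, against 10.2% of Ser5P-only sites and 11.7% of sites marked in all 8.

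Past the annotated ends the members were most frequent a few kilobases downstream. Of 1116 Ser2P-only sites outside promoters, 65 (5.82%) had their summit 3 to 4 kb past the nearest gene 3′ end, 58 (5.20%) 2 to 3 kb past and 22 (1.97%) in the last 1 kb before the end. The bin 3 to 4 kb past held 1.04% of Ser5P-only sites and 2.31% of sites marked in all 8 libraries. Of the 401 distal members, 71.6% had a 3′ end as the nearest edge of a gene, against 42.3% of distal Ser5P-only sites and 47.2% of distal sites marked in all 8. A noncoding RNA gene of the table covered 40 of the 401.

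**Figure D3:**
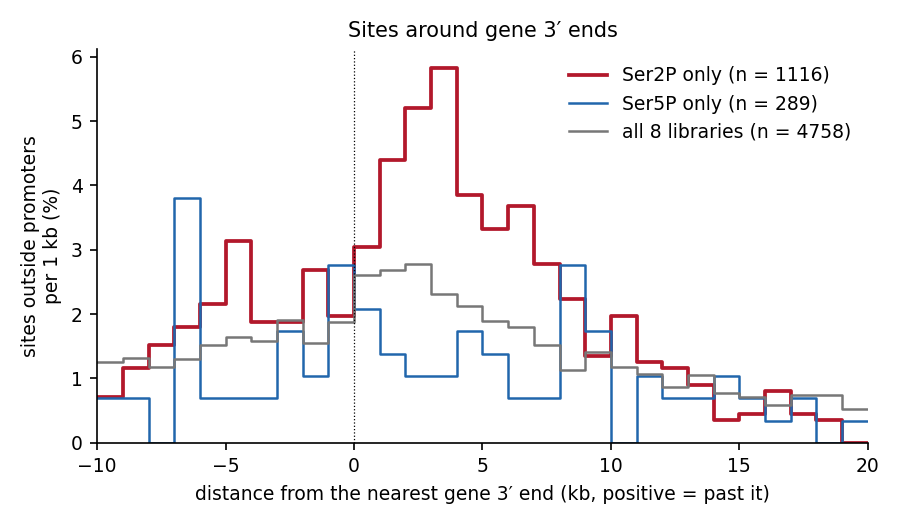
Percent of sites outside promoters per 1 kb of distance from the nearest gene 3′ end (0 kb; positive values lie past it), for Ser2P-only sites, Ser5P-only sites and sites marked in all 8 libraries. The Ser2P-only line is highest 3 to 4 kb past the end, at 5.82%, where the other 2 lines stand at 1.04% and 2.31%.

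The genes that ended just upstream of a member were mostly genes with Ser5P at their promoter. Genes with a promoter Ser5P peak in all 4 Ser5P libraries are called Ser5P-marked here, and they were 8728 of 21536 genes (40.5%). Of the 1210 members, 113 (9.34%) lay outside promoters within 3 kb past the 3′ end of such a gene, 400 (33.1%) within 10 kb and 534 (44.1%, 95% Wilson interval 41.4 to 46.9) within 20 kb. Within 20 kb past the end of a gene with no promoter Ser5P peak lay 118 members (9.75%). The share within 20 kb past a Ser5P-marked gene was 14.5% for Ser5P-only sites and 12.4% for sites marked in all 8. Inside such a gene or within 20 kb past its end lay 68.6% of members, 30.1% of Ser5P-only sites and 23.1% of sites marked in all 8. All these shares are of all sites, while promoter sites could not count in them, which lowers the shares of sets rich in promoters. Outside promoters the counts were 830 of 1116 members, 104 of 289 Ser5P-only sites and 2722 of 4758 sites marked in all 8. Within 20 kb past such a gene alone they were 534, 50 and 1459 of the same totals. Of the 401 distal members, 247 (61.6%) lay within 20 kb past a Ser5P-marked gene. The 20 kb share was 45.9% among the 833 members marked in both KD libraries and control 1, and 45.2% among those in all 4 libraries. It was 42.2% among the 618 marked in control 2.

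These positions moved with peak strength, whose part in them was not tested. Members are weak peaks, with a median fold at percentile 26.5 and 24.6 of their lists in the KD libraries and 23.4 and 22.6 in the controls. The members were put into 4 strength groups of like size by their mean percentile. The strongest group took all sites above a mean percentile of 43.3, with no upper limit. Sites with 4 Ser5P libraries had a median percentile of 71.8, so in the strongest group sites with Ser5P need not be of like strength to members. In the weakest group 24.1% were at 3′ ends, against 23.6% of Ser2P sites of like strength that also had Ser5P. In the next groups the shares were 15.6% against 16.7% and 10.6% against 10.02%, and in the strongest 6.27% against 3.06%, so members were not higher in every group. Within 20 kb past a Ser5P-marked gene lay 69.3% of the weakest group of members against 60.7% of the like sites with Ser5P, 53.0% against 47.7% and 37.7% against 28.5% in the next groups, and 16.5% against 9.86% in the strongest. These shares are of all sites, while promoter sites could not count in them. In the strongest group, 50 of 303 members counted and 36 were at promoters. Of the sites with Ser5P in that group, 1406 of 14266 counted and 7548 were at promoters. The shares thus do not show that members exceed like sites outside promoters. The median position inside genes was further toward the 3′ end for members in each group from weakest to strongest, at 86.4%, 76.3%, 66.6% and 59.8%, against 78.8%, 67.3%, 55.0% and 47.8% at sites with Ser5P.

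Position was also compared between the antibodies, library by library, on every peak that overlapped no peak of the other antibody, of which the members are a part. The 4 libraries of an antibody were filtered by the same 4 lists, and the permutations did not repeat that filter. Libraries of an antibody may be alike through it, so the p-values for these peaks can be too small. At 3′ ends lay 11.04% and 10.92% of these peaks in the 2 Ser2P KD libraries and 10.27% and 10.37% in the 2 Ser2P controls, against 8.53% and 8.01% in the Ser5P KD libraries and 8.15% and 7.77% in the Ser5P controls. All 4 Ser2P libraries stood above all 4 Ser5P libraries. The mean share was 10.7% ± 0.384 for Ser2P and 8.11% ± 0.318 for Ser5P (SD, n = 4 each). The difference was 2.54 points (two-sided exact permutation test, p = 0.0286, adjusted p = 0.0286 over the 6 values tested, the smallest that 70 arrangements allow).

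The other 5 values did not overlap between the antibodies either, each with p = 0.0286 and adjusted p = 0.0286 in the same exact permutation test. The median position inside genes was 64.3% ± 1.51 for Ser2P and 55.4% ± 2.40 for Ser5P, and the median distance to a 5′ end was 24824 ± 788 bp and 17428 ± 538 bp (SD, n = 4 each). Promoters held 5.48% ± 0.516 of Ser2P and 7.53% ± 0.243 of Ser5P exclusive peaks, and distal positions held 26.5% ± 0.172 and 29.7% ± 0.706. Elsewhere inside genes lay 57.3% ± 0.950 and 54.7% ± 0.943. The difference at 3′ ends was 2.71 percentage points within KD and 2.36 within control libraries, and that of the position inside genes was 9.25 and 8.65. With lists cut to equal length, the differences were 3.75 points at 3′ ends and 11.8 points of position inside genes, each with an unadjusted exact permutation p of 0.0286, and none of the 6 passed an adjusted p of 0.05 (0.0571 for both).

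**Figure D4:**
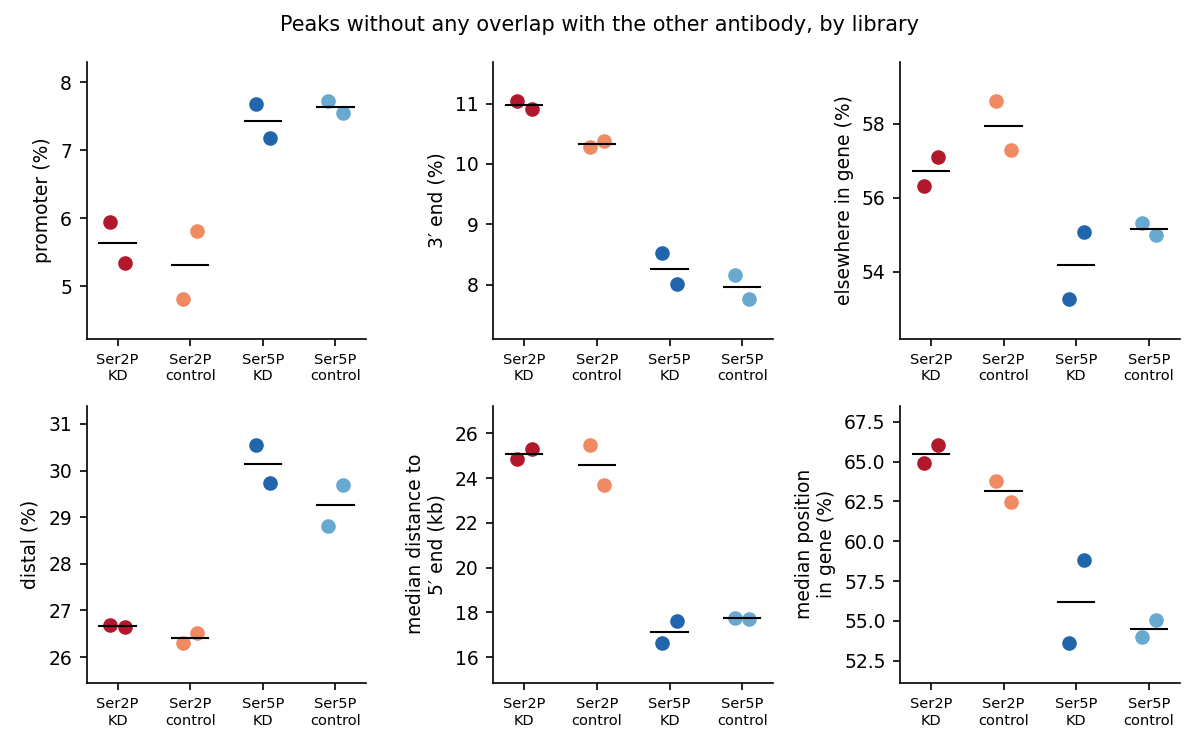
Peaks with no overlap with any peak of the other antibody: share in each position class (%), median distance to a 5′ end (kb) and median position inside genes (%), 1 point per library and a line at the mean of each group of 2; the vertical axes do not start at 0. In each of the 6 panels the 4 Ser2P libraries are apart from the 4 Ser5P libraries, as at 3′ ends with 10.27% to 11.04% against 7.77% to 8.53%.

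Genes that held Ser2P-only sites carried Ser5P at their own promoters more often than genes as a whole did. Of 486 host genes, 312 (64.2%, 59.8 to 68.3) were Ser5P-marked, against 53.0% of 115 hosts of Ser5P-only sites, 59.97% of 1901 hosts of sites marked in all 8 and 40.5% of all genes. Among genes of at least 50 kb the share was 70.1% of 341 hosts of Ser2P-only sites, 50.7% of 71 hosts of Ser5P-only sites and 41.3% of all such genes. A member inside or within 3 kb past the gene was found for 747 of 21536 genes (3.47%), for 5.17% of Ser5P-marked genes and for 1.87% of genes with no promoter Ser5P. The shares parted with length. Of Ser5P-marked genes, 20.4% of those over 100 kb had a member, against 4.07% of genes of that length with no promoter Ser5P, while under 10 kb the shares were 0.798% and 0.758%.

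A part of the members lay inside genes whose own promoter had no Ser5P peak in any library, and for many of these a Ser5P-marked gene ended close upstream. Of 141 such sites, 74 (52.5%) lay within 20 kb past the 3′ end of a Ser5P-marked gene, against 6 of 39 Ser5P-only sites (15.4%) and 27.3% of 675 sites marked in all 8. This share moved with peak strength too. From the weakest to the strongest group it was 87.5%, 55.3%, 37.9% and 20.6% of members. Ser2P sites with Ser5P in the same groups had 76.7%, 69.2%, 34.0% and 19.3%, with members lower in the second group. The strongest group has no upper limit, so its sites with Ser5P need not be of like strength. The following examples were picked after their values were seen. The site in Pth2r, which encodes a parathyroid hormone receptor, lay 4262 bp past the end of Pikfyve, a phosphoinositide kinase. It covered 399 and 392 bp in KD 1 and KD 2 against 243 bp in control 1 and none in control 2, so both KD libraries were above both controls. Here and at the other single sites the bp are as covered, with no correction for the greater depth of the KD libraries. Where both KD libraries are said to be above or below both controls, that describes these bp and is not a response to the knockdown. The site in Raver2, which encodes an RNA-binding protein, lay 5626 bp past the end of Jak1, the cytokine receptor kinase. It covered 282 and 292 bp in the KD libraries against 330 and 296 bp in the controls, here with both KD libraries below both controls.

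Genes known for other tissues were among these hosts. In Foxp3, the regulatory T cell factor, a site lay 7618 bp past the end of Ccdc22, a subunit of the endosomal CCC complex. It covered no bp and 263 bp in the KD libraries against 340 and 210 bp in the controls, and the groups overlapped. In Mapt, which encodes the neuronal microtubule protein tau, a site lay 4299 bp past Kansl1, a subunit of the NSL acetyltransferase complex, and covered 937 and 876 bp in the KD libraries against 772 and 0 bp in the controls. Both KD libraries were above both controls in Mapt.

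A locus with several members was that of Tbr1, a T-box factor of cortical neurons, with 3 members in its 11252 bp and 1 more past its end, within 13.7 kb in all. No Ser5P library had a peak at its promoter, while all 4 Ser2P libraries did. The first of the 3 (chr2:61802651-61803196) has its summit 79 bp from the Tbr1 5′ end and 2566 bp past the 3′ end of Psmd14, a proteasome subunit and deubiquitinase. It covered 347 and 352 bp in the KD libraries against 332 and 546 bp in the controls, so the groups overlapped. The second covered 552 and 692 bp in the KD libraries against 369 and 0 bp in the controls, and the third 400 and 270 bp against 240 and 0 bp. At both of these sites the KD libraries were above the controls and control 2 had no peak.

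Most genes with a member had few. Of the genes with members inside, 539 held 1, 42 held 2, 10 held 3, 1 held 4 and 1 held 9. The gene with 9 was Cux1, which encodes a homeodomain repressor with cut repeats, on chromosome 5 (chr5:136248135-136567590, minus strand). With promoter Ser5P and Ser2P in all 4 libraries each, Cux1 carried 8 of its 9 members between 53.5% and 96.5% of its length and 1 at 11.2%. Another 6 Ser2P sites of the gene also had Ser5P. These 8 sites lie 13744 to 102437 bp from the nearest Ser5P peak.

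The widest Cux1 site (chr5:136307294-136308437) covered 1113 and 861 bp in the KD libraries against 1144 and 555 bp in the controls, and the groups overlapped. The site nearest the 3′ end (chr5:136258857-136259454) covered 598 and 420 bp in the KD libraries against 397 and 215 bp in the controls, with both KD libraries above both controls. Its deposited folds were 3.96 and 3.74 in the KD lists and 3.71 and 4.41 in the control lists, which are given as values of each list. Of the other 7, control 2 had no peak at 6 and KD 2 none at 1.

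Asap1, a GTPase-activating protein for Arf proteins, held 4 members, and no Ser5P library had a peak at its promoter. Of these, 3 lay at 70.3%, 74.1% and 76.6% of its 296102 bp and 1 at its 5′ end. Another 14 Ser2P sites of the gene also had Ser5P. The 5′ site (chr15:64382323-64383201) covered 848 and 329 bp in the KD libraries against 0 and 349 bp in the controls, so the groups overlapped. Cux1 and Asap1 were the only genes with at least 4 members, at 0.282 and 0.135 sites per 10 kb.

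Of the 10 genes with 3 members, all but Tbr1 had promoter Ser5P in all 4 libraries, and these 9 genes were 67292 to 287334 bp long. They were Atp7b, a copper-transporting ATPase, Taok3, a Ste20-family kinase, Etv6, an ETS-family repressor, Sik3, a salt-inducible kinase, Kmt2c, the histone methyltransferase of the MLL3 complex, Cdk6, a cell cycle kinase, Ctbp2, a corepressor, Ankrd11, an ankyrin-repeat chromatin regulator, and Faf1, a Fas-associated factor, besides Tbr1. In Ctbp2 the sites lay at 66.6%, 87.8% and 93.0% of the gene. In Ankrd11 they lay at 64.3%, 72.6% and 90.4%, with 1 more past the end. In Faf1 they lay at 8.46%, 20.7% and 63.1%, and in Kmt2c at 47.6%, 50.7% and 98.2%.

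The widest of these was in Taok3 (chr5:117234154-117235477), which covered 489 and 1016 bp in the KD libraries against 257 and 337 bp in the controls, with both KD libraries above both controls. In Atp7b the site at 97.8% of the gene covered 812 and 735 bp in the KD libraries against 637 and 0 bp in the controls. At 81.7% it covered 699 and 978 bp against 602 and 0 bp. At both Atp7b sites the KD libraries were above the controls and control 2 had no peak. Of the 42 genes with 2 members, the 8 with the most covered bp in their members were Slc3a1, Chd5, Coch, Rai1, Cdyl, Hipk2, Myo1d and Myh10, and Slc3a1, Chd5, Coch and Hipk2 among them had no promoter Ser5P in any library.

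Some members came in runs, which were not counted for other Ser2P sites, so runs are not shown to be particular to members. With neighbours at most 50 kb apart, 28 clusters of at least 3 held 97 of the 1210 sites. The longest held 9, over 170.8 kb across Cux1 and its neighbour Sh2b2, an adaptor protein gene, and clusters of 5 lay around Arid1b, a SWI/SNF subunit, and Ankrd11. Chromosome 5 held 117 members (9.67%), against 7.28% of all Ser2P sites in at least 3 libraries, and chromosome 9 held 42 (3.47%), against 5.29%.

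The members were also placed against the Ser5P peaks around them. The median gap from a member to the nearest Ser5P peak of any library was 7623.5 bp, with quartiles of 2657 and 17506 bp. A Ser5P peak lay within 1000 bp of 135 members (11.2%) and within 10 kb of 708 (58.5%). For Ser5P-only sites the median gap to the nearest Ser2P peak was 5279.5 bp, and 20.5% had one within 1000 bp.

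The 12 members that ranked highest by their smallest fold were mostly inside genes. Fyb, an adaptor of immune receptor signalling, had the highest, at 91.4% of the gene, with 532 and 0 bp covered in the KD libraries against 257 and 239 bp in the controls. Others lay in Arhgap15 (a Rac GTPase-activating protein), Il1rap (the interleukin 1 receptor accessory protein), Apex2 (an apurinic endonuclease), Dyrk1a (a dual-specificity kinase), Pth2r, Cracdl and Mid1 (a ubiquitin ligase), at the promoter of Bzw1, and in the distal ground nearest Lnx1 and Nln. The remaining site lay inside predicted genes, which are passed over here. All 12 had a peak in 3 of the 4 Ser2P libraries and none in all 4. In Dyrk1a the site covered 0 and 306 bp in the KD libraries against 286 and 211 bp in the controls, so the groups overlapped. The smallest folds of the 12 ran from 5.87 to 6.99, and the fragments at a summit from 9 to 43.

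Of the 94 members at promoters, 24 had peaks in all 4 Ser2P libraries. The nearest gene had no promoter Ser5P peak in any library for 73 of them, 1 to 3 libraries with a peak for 15 and all 4 for 6. A Ser5P peak lay within 1000 bp of 24, the median gap was 5660.5 bp, and 46 lay within 20 kb past the 3′ end of a Ser5P-marked gene. Cyp2ab1 is among the 46, with its site 5751 bp past Abcc5, an ABC transporter gene, whereas for Rtraf, Slc35g1 and Ptbp2 the nearest such end was over 20 kb away.

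The Rtraf site covered 492 and 865 bp in the KD libraries against 469 and 481 bp in the controls, with both KD libraries above both controls, and the nearest Ser5P peak was 126567 bp away. The Slc35g1 site covered 258 and 243 bp in the KD libraries against 276 and 214 bp in the controls, and the groups overlapped. The Ptbp2 site covered 937 and 507 bp in the KD libraries against 372 and 208 bp in the controls, again with both KD libraries above. At Slc30a1, which encodes a zinc exporter, 953 and 779 bp were covered in the KD libraries against 0 and 209 bp in the controls, and at Fa2h, a fatty acid 2-hydroxylase, 507 and 433 bp against 268 and 0 bp. Both KD libraries were above both controls at these 2 promoters, in bp that are not corrected for depth.

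At Bzw1, a translation regulator, the promoter site covered 365 and 0 bp in the KD libraries against 235 and 206 bp in the controls, so the groups overlapped. It is near the limit of the rule, with a Ser5P peak 333 bp away and promoter Ser5P in 2 libraries. At Ube2h, a ubiquitin-conjugating enzyme, the nearest Ser5P peak was 761 bp away. The rest of the 10 highest-ranking promoter sites were at Lrrc8b (a volume-regulated anion channel subunit), Sephs1 (a selenophosphate synthetase homologue) and Sav1 (a Hippo pathway scaffold), with no promoter Ser5P at these genes and gaps of 5384 to 17498 bp.

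In base composition the promoter windows under Ser2P-only sites stood nearer to promoters with both marks than to promoters with no peak. The 65 windows that a member overlapped had a median GC content of 61.0% and a median of 21 CpG pairs. The values were 54.0% and 12 for 36 windows under Ser5P-only sites, 62.0% and 23 for 7415 windows under sites marked in all 8, 50.0% and 4 for 9672 windows of genes with no promoter peak, and 56.3% and 13 for all 21238 windows. GGGCGG, searched on both strands as all motifs were, was in 63.1% of member windows, against 70.8% of windows with both marks and 46.2% of all windows. CCAAT was in 35.4% of member windows and 38.2% of all, TATAAA in 9.23% and 12.6%, and AATAAA in 13.8% and 16.2%. CCGGAAG, the letters of an ETS factor motif, was in 9.23% of member windows, 23.7% of windows with both marks and 11.6% of all. AGATAA, the letters that GATA factors bind, was in 6.15% of member windows and 9.65% of all, TGACTCA (AP-1) in 4.62% and 4.66%, CACGTG (the E-box) in 7.69% and 7.84%, and GCGCATGC (the NRF1 letters) in 3.08% and 3.52%. With 65 windows 1 match is worth over a percentage point, and these shares were not tested.

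Gene lists are described by the count of their genes with a member inside or within 3 kb past, beside the 3.47% of all genes and the 5.17% of Ser5P-marked genes, and no list was tested. Among erythroid regulators it was 4 of 27 (14.8%), namely Etv6 with 3 sites, Runx1 with 2, Ikzf1 with 1 and Gata1 with 1 past its 3′ end. Etv6, Runx1 and Ikzf1 are long, at 234459, 224609 and 87969 bp, and Gata1 spans 17404 bp. Of Ser5P-marked genes, 20.4% of those over 100 kb and 7.42% of those of 30 to 100 kb had a member. The list shares are not matched for length. The Gata1 site (chrX:7955930-7956555), 2999 bp past the end of the gene for the leading erythroid GATA factor, covered 299 and 0 bp in the KD libraries against 234 and 336 bp in the controls, so the groups overlapped. The widest Etv6 site covered 738 and 864 bp in the KD libraries against 495 and 210 bp in the controls, with both KD libraries above both controls. The Runx1 site marked in all 4 covered 367 and 376 bp against 493 and 314 bp in the controls, and the groups overlapped.

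Of globin and red-cell membrane genes 1 in 21 (4.76%, against 3.47% of all genes) had a member, Ank1, the membrane skeleton ankyrin. The Ank1 site covered 610 and 310 bp in the KD libraries against 0 and 233 bp in the controls, with both KD libraries above both controls. Around the alpha-globin genes lay 1 member among 9 Ser2P sites in at least 3 libraries, and around the beta-globin genes 0 of 3. Between Myb and Hbs1l, where the targeted enhancer lies, there was no member among 8 such sites, of which 5 were marked in all 8 libraries. Over the genome 1210 of 20334 such sites were members, so counts of 0 or 1 among so few sites are near that share. The 8 genes of the list of Myb and its flanks and the 12 genes of the MLL1 complex had none.

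Polymerase II subunits, kinases and elongation factors held members in 3 of 42 (7.14%, against 3.47% of all genes), Ell and Cdk12 among them. Cdk12, a serine 2 kinase, had a site 1678 bp past its 3′ end that covered 1230 and 602 bp in the KD libraries against 525 and 0 bp in the controls, with both KD libraries above both controls. Cleavage, polyadenylation and termination factors held them in 2 of 25 (8%), at Scaf4 and at Pcf11, whose site was 748 bp past the end and covered 0 and 532 bp in the KD libraries against 552 and 258 bp in the controls, so the groups overlapped. Splicing factors had 1 of 38 (Hnrnpl) and translation factors 1 of 31 (Eef1d).

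Cytosolic ribosomal protein genes had 0 of 73, replication-dependent histones 0 of 36 and immediate-early and stress genes 0 of 30. These genes are short, with median lengths of 3183, 494.5 and 3825.5 bp, and under 10 kb only 0.798% of Ser5P-marked genes had a member, so a count of 0 in these lists is near the share of genes of that length. Replication and cell cycle genes had 3 of 48 (Cdk6, Pola1 and Rfc1), glycolysis 3 of 19 (Hk1, Hk2 and Slc16a1), the proteasome 2 of 30 (Psmd14 and Psma5) and chaperones 1 of 21 (Hspa4). At Cdk6 a site 901 bp past the end, marked in all 4 libraries, covered 343 and 457 bp in the KD libraries against 512 and 242 bp in the controls, and the groups overlapped. Lymphoid, myeloid, and megakaryocyte and mast cell markers had 0 of 12 each, the erythroid markers 1 of 16 (Gata1) and the non-haematopoietic markers 1 of 12 (Apoa1).

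The KD libraries marked more members than control 2 and about as many as control 1. Peaks were found at 1129 and 1056 members in the KD libraries against 1068 and 618 in the controls. A marked member had a median of 404 and 392.5 bp covered in the KD libraries against 345 and 282.5 bp in the controls, and summed cover was 523.2 and 478.6 kb against 418.6 and 192.5 kb. Both measures of cover were above the controls in both KD libraries, and the number of marked members overlapped. The rule chose members by presence of a peak, so the number of marked members and the summed cover are descriptions and are not tested. For the median cover of a marked member the two-sided exact permutation test gave p = 0.333, the smallest that 2 against 2 allows. The position of the marked members hardly moved, with 14.6% and 14.3% at 3′ ends in the KD libraries against 14.61% and 14.01% in the controls (exact permutation p = 0.667). The cover moves with depth, since the background pileup was 1.12 and 1.03 in the KD libraries and 0.781 and 0.439 in the controls, and the part of depth was not tested. Each library is an average over cells, so fewer cells with the mark and less of it per cell cannot be told apart.

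**Figure D5:**
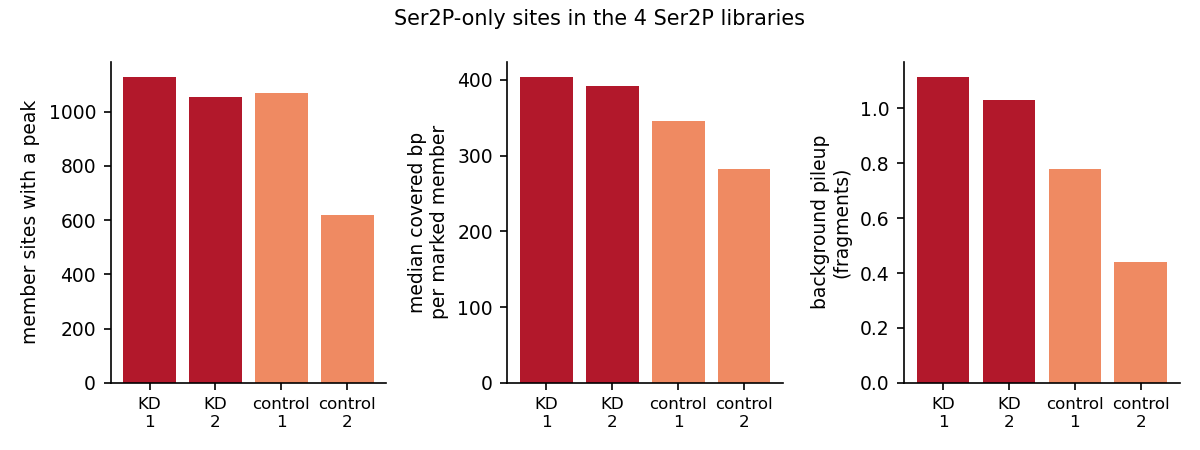
Number of Ser2P-only sites with a peak (left), median bp covered per marked site (middle) and background pileup in fragments (right) in each of the 4 Ser2P libraries, 1 bar per library with KD in dark red and control in orange. Control 2 has 618 marked sites, 282.5 bp and a pileup of 0.439, the lowest of the 4 in each panel.

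Site by site, no difference between KD and control passed the test. The bp covered were compared with limma on log2(bp + 100), each library centred on its median, over the 20334 regions with a peak in at least 3 Ser2P libraries. No region was called in either direction (0 of 20334, 0% called, at an adjusted p under 0.05), members included, and the smallest adjusted p was 0.744. At an unadjusted p under 0.05 stood 26 members with KD higher and 7 with KD lower, of 340 and 173 regions in all. The median log2 difference, KD minus control, was 0.65 over the members and -0.02 over all regions. It was -0.04 over the 241 members in all 4 libraries, fitted among regions marked in all 4. The rule lets a member lack 1 library, and for 592 that is control 2, so the median over all members says nothing of a response. On these centred values both KD libraries were above both controls at 263 members (21.7%), against 16.6% of all regions, and below at 185 (15.3%), against 25.2%. The rule bears on these shares too. The library without a peak was control 2 for 592 members and control 1 for 142, but KD 2 for 154 and KD 1 for 81. These shares therefore say nothing of a response either. The bp given above for single sites are not centred, so these shares are not their background. How often uncentred bp part in this way over all regions was not counted. Without centring, the median log2 difference over all regions was 0.33. At an unadjusted limma p under 0.05 there then stood 923 regions with KD higher and 19 with KD lower, of 20334.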

How the data were processed

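Per the labels' protocols, a commercial CUT&Tag kit was used on the same number of MEL cells for each replicate. The authors deposited 1 peak list per library. Per the submitters' processing notes the build was GRCm38 (mm10) and the tools included MACS2 2.2.7.1, Bowtie2 2.3.5, cutadapt 2.7, Picard 2.21.4, SAMtools 1.9 and deepTools 3.3.1. Nothing in the sources used here gives their settings. For each peak the authors deposited a score, a fold enrichment as a ratio, a −log10 p-value, a −log10 q-value and a summit offset. Fold and p are values of their own list and served only to rank, filter or describe peaks; ranking by the smallest fold sets folds of several lists side by side. Read totals were not used here, and depth was read as the background pileup solved from the deposited fold and −log10 p-value (tolerance 0.001 on −log10 p), which over 99.9% of peaks allowed. Peaks on other sequences (24 to 30 per library) were left out.

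Peaks overlapping by at least 1 bp were merged over the 8 libraries. A region's summit is the median of its library summits. Gene intervals came from the RefSeq table for GRCm38.p6, with strand from its promoter table or, by symbol, from GENCODE vM1, for 21536 of 21887 protein-coding genes; exons were not used here, and the genome supplied, NCBIM37, is of another build and was not used. Classes were given in the order promoter, 3′ end, inside, distal. Covered bp per region were tested with limma 3.58.1 in R 4.3.3 (Benjamini-Hochberg over all regions), tested on simulated data, and values per library with exact permutation tests in Python 3.11.15. Wilson intervals are at 95% and, like all shares, cover counting error only. The authors called peaks per library. Same-numbered libraries were not paired by the labels. Sites were named by rank of smallest fold (12 sites, 10 promoters), genes by number of members (20) or by list, with predicted genes passed over; some genes these rules take are left out of the text. The members, lists and rules were chosen with earlier results of these data known. The alternatives tried were peaks with a −log10 q of 5 or more, equal list lengths, other windows, stricter membership, leaving out each library and a replicate block.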

Additional observations from a re-analysis of the deposited data

Results flagged for a closer look

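The values of each library were compared within sets of 4 libraries of an antibody, 21 sets in all, and a value far from the other 3 was noted; chance marks about 1 set in 20. Control 2 of Ser2P marked 618 members, far below the other 3 Ser2P libraries with 1056 to 1129, and it is also the shallowest, with a background pileup of 0.439; the part of depth was not tested. Among exclusive Ser5P peaks, KD 1 had 53.3% elsewhere inside genes and a median distance of 16626 bp to a 5′ end, apart from the other 3 Ser5P libraries, with 55.0% to 55.3% and 17614.5 to 17753 bp.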

How the results depend on the processing

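The number of members depends most on the rule: it was 698 with a −log10 q of at least 5, 564 with equal list lengths and 241 when all 4 Ser2P libraries had to have a peak. Leaving out 1 library gave 323 to 1618 sites, with 323 without KD 1, 395 without KD 2 and 379 without control 1 of Ser2P. The share at 3′ ends stayed within its interval in all settings, from 12.3% to 15.9%, and ran from 12.7% to 14.4% without a library. The promoter share moved to 11.5% (q), 9.57% (equal length), 9.96% (all 4 libraries) and 10.2% (2000 bp window), and ran from 7.73% to 10.8% without a library. The share elsewhere inside genes moved to 42.1%, 41.7% and 37.8% under the first 3 of these settings and ran from 39.6% to 47.2% without a library. The distal share moved to 39.0% with all 4 libraries and 28.8% with all genes of the table that have a strand, and ran from 31.6% to 37.2% without a library. The cause was not tested.

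The differences of exclusive peaks, Ser2P minus Ser5P, kept their direction in all settings. With equal list lengths none of the 6 passed, at -2.83 (promoter), 3.75 (3′ end), 1.72 (elsewhere in genes) and -2.63 (distal) percentage points, 7932.5 bp and 11.8 points of gene length, with adjusted p from 0.0571 to 0.543. Elsewhere inside genes did not pass with a 1000 bp exclusion (2.17, adjusted p = 0.0571) and ran from 1.60 (without KD 1 of Ser5P) to 4.60 (without KD 1 of Ser2P), failing without KD 1 or KD 2 of Ser5P. The promoter difference did not pass with a 500 bp window (-0.74, adjusted p = 0.0857), was -0.98 with the 1000 bp exclusion and -3.88 with a 2000 bp window, and ran from -1.38 without KD 1 of Ser5P to -3.64 without KD 1 of Ser2P. With a −log10 q of at least 5 the 3′ end difference was 3.95 and the position 16.4 points, both with adjusted p = 0.0286 by exact permutation. In regions marked in at least 3 of 4 libraries the differences were 8.51 and 31.3. That setting comes close to the rule for members, and the libraries of an antibody then hold largely the same regions. A p-value over libraries cannot measure their spread there, and none is given. In the replicate block, permutation within replicate number leaves the differences at -2.05, 2.54, 2.68, -3.16, 7396 bp and 8.95, and 36 arrangements cannot give a p under 0.0556. The labels do not say that numbers pair libraries. The deviations of KD 1 and control 1 of Ser2P correlated at r = 0.010 over 14414 regions, the same check between antibodies was not made, and limma with the replicate block called 0 regions, as did all other limma settings. Of the KD against control values per library, the distal share changed sign with a −log10 q of at least 5 (-0.017 points against 0.061). Sites are weak peaks, with 13 to 22 fragments at the median summit, so a Ser5P peak too weak to call cannot be told from none.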
